A study of Mus musculus with 16 samples.

Results

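The miR-125, miR-99 and miR-100 families were followed in mouse heart after 1, 2 or 3 days of exposure to an aggressor mouse. The members are mmu-miR-125a-5p, mmu-miR-125b-5p, mmu-miR-99a, mmu-miR-99b and mmu-miR-100, written below without the mouse prefix mmu. They were found by name on the array, where a probe was taken when the list of microRNAs it names holds a member exactly. This gave 5 of the 1023 probes that name a mouse microRNA, by a rule that reads names alone, although the families were picked with earlier results of these data known. 4 of the 5 stood above the background level in all 16 samples, and miR-100 did so in 1. None of the 5 differed between any groups beyond the spread between samples and arrays, at limma adjusted p values of 0.406 to 0.998 over 35 tests. Of these tests 0 had an unadjusted p under 0.05, against 8.47% of the tests of all mouse probes.

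MicroRNAs are short RNAs that guide a silencing complex to messenger RNAs, mainly through the bases of the seed near their 5′ end. The miR-125 family descends from lin-4, the first microRNA described in the worm Caenorhabditis elegans, and the miR-99 and miR-100 family is among the oldest in animals. In mammals the genes of both families sit beside let-7 genes in small clusters, and the microRNAs of a cluster can be cut from a shared primary transcript. miR-99a and miR-100 are known to repress the mTOR kinase, a regulator of growth and protein synthesis, and miR-125b is known for targets in the p53 and apoptosis pathways. miR-125b and miR-99a are well expressed in adult heart.

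The hearts came from C57BL/6 mice, an inbred laboratory strain, with no transgene or deletion given in the labels. Exposed mice sat in a wire mesh box in the cage of an aggressor for 6 hours a day, and were placed 3 to 5 times with the aggressor itself until 2 min or 10 attacks had passed. Exposure lasted 1 day in T1R1, 2 days in T2R1 and 3 days in T3R1, and 1 day of rest came after it in each. Controls were boxed too, in a large cage that held no aggressor. Each of the 4 groups held 4 samples, and the extraction protocol in the labels speaks of RNA from individual hearts. What the code C2R1 in the names of control samples stands for is not said. The treatment text gives longer exposures than the design text, whose days are used here. The ages and sexes of the mice are not given in the sources used here.

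RNA was measured on 8 arrays of locked nucleic acid capture probes. Each array carried 2 samples from a single group, the first in the green dye Hy3 and the second in the red dye Hy5, so that a group rests on 2 arrays. By the opening digits of the slide numbers, control and T3R1 arrays form slide series 1, and T1R1 and T2R1 arrays form slide series 2. This split rests on the slide numbers alone. All scans carry the same date, and their times of day mix the groups. T1R1 and T2R1 cannot be told apart from their slide series when they are set against control or T3R1. The mean green brightness of the corner marks on the slide was 15369 to 15952 in series 1 and 22746 to 27773 in series 2. Levels below are normalised log2 intensities, and each mouse probe had 4 spots per array. Background was the 95th percentile of 143 probes for human viruses in the same sample, which lay at 6.62 to 6.95 on the log2 scale. Between 165 and 242 mouse probes exceeded it per sample. The heart muscle markers miR-133a, miR-133b and miR-499 exceeded it in 16 samples and miR-208a-3p in the 15 in which it had a value. A probe named miR-1 was not found. The neuron markers miR-9 and miR-124 exceeded it in 0 samples, and miR-128, also on the neuron list, in 1, where it reached 7.62. The liver marker miR-122 did so in 1. Of 5 epithelial markers miR-200a exceeded it in 1 sample, where it reached 7.58, and the others in 0. Markers of blood, leukocytes, endothelium, smooth muscle and fibroblasts exceeded it in at least 12 samples each, apart from the smooth muscle microRNA miR-143, which had a value in 9 and exceeded it in those. In bulk RNA, fewer cells of a type and less RNA per cell cannot be told apart.

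The mature sequences show how the members divide into families. They are RefSeq sequences for the mouse build GRCm38.p6, written 5′ to 3′ with the seed, bases 2 to 8, in capitals.
miR-125a-5p: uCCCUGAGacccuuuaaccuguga
miR-125b-5p: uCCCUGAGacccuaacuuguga
miR-351: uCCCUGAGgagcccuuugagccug
miR-99a: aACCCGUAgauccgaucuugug
miR-99b: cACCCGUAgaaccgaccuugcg
miR-100: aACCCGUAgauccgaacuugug
miR-125a-5p and miR-125b-5p share the seed CCCUGAG, which miR-351 from the X chromosome also carries. miR-99a, miR-99b and miR-100 share the seed ACCCGUA. miR-99a and miR-100 are identical at 21 of 22 bases and differ by U16A, counted from the 5′ end of miR-99a. miR-99a and miR-99b are identical at 18 of 22 bases and differ by A1C, U11A, U16C and U21C. Without gaps, miR-125a-5p and miR-125b-5p match at 15 of 22 bases. How far the capture probes keep such near-identical sequences apart was not tested.

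The genes lie in 3 clusters on the plus strand of GRCm38.p6, each with a let-7 gene between the members. On chromosome 9, Mir100 (chr9:41531425-41531504), Mirlet7a-2 (chr9:41536716-41536811) and Mir125b-1 (chr9:41581926-41582002) lie within the long non-coding gene Mir100hg and span 50578 bases. On chromosome 16, Mir99a (chr16:77598936-77599000), Mirlet7c-1 (chr16:77599657-77599750) and Mir125b-2 (chr16:77646273-77646343) span 47408 bases. On chromosome 17, Mir99b (chr17:17830188-17830257), Mirlet7e (chr17:17830352-17830444) and Mir125a (chr17:17830812-17830879) lie within 692 bases, inside the gene Spaca6. miR-125b-5p has the same mature sequence from both of its genes, so its probe cannot tell the chromosome 9 and chromosome 16 clusters apart.

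**Figure D1:**
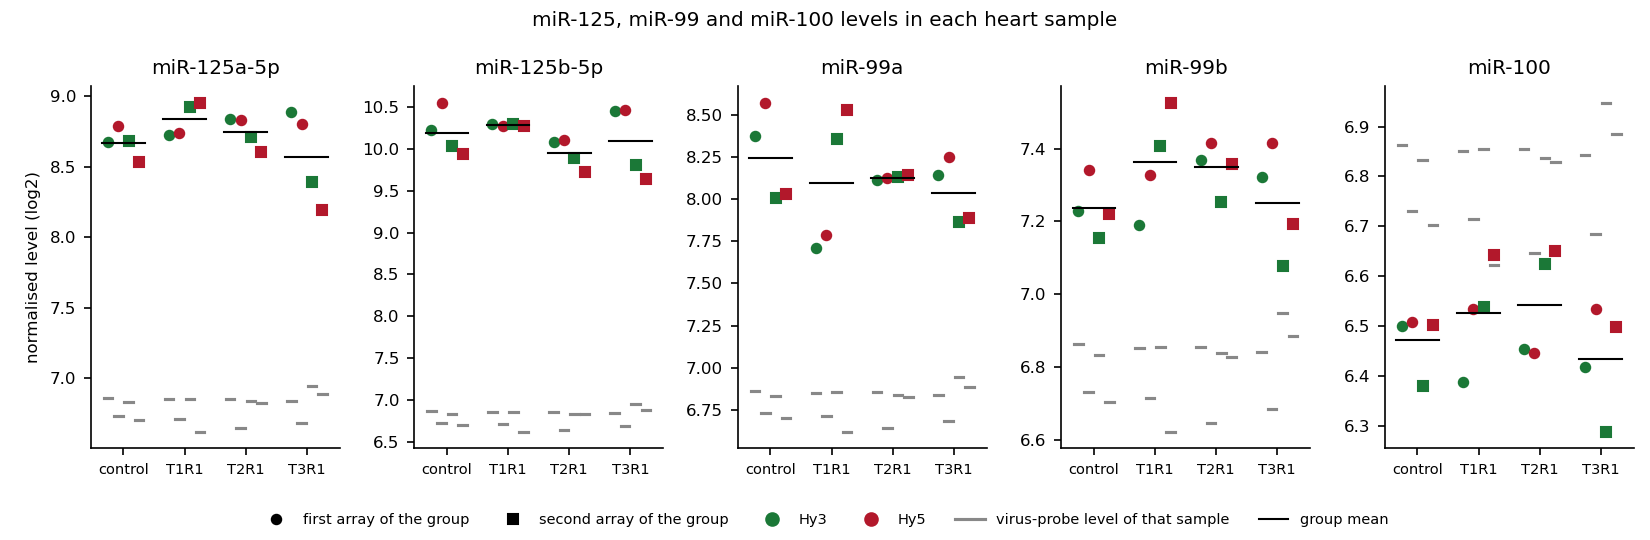
Normalised log2 level of each member in the 16 samples, by group, with circles and squares for the first and second array of a group, green for Hy3 and red for Hy5; grey bars mark the virus-probe level of the sample and black bars the mean of 4 samples. 4 members lie above the grey bars in all 16 samples and miR-100 in 1, and the 2 samples of an array tend to sit together.

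miR-125a-5p, one of the 2 members that carry the lin-4 seed, had group means within 0.26 of each other on the log2 scale. Its log2 levels in replicates 1 to 4 were 8.67, 8.79, 8.68 and 8.53 in control and 8.72, 8.74, 8.93 and 8.95 in T1R1. They were 8.84, 8.83, 8.71 and 8.61 in T2R1 and 8.89, 8.81, 8.39 and 8.19 in T3R1. The groups overlap, and the lowest values are those of T3R1 replicates 3 and 4, which shared an array. Group means ± SD over 4 samples were 8.67 ± 0.10 in control, 8.83 ± 0.12 in T1R1, 8.75 ± 0.11 in T2R1 and 8.57 ± 0.33 in T3R1. In order of level the groups stood as T1R1, T2R1, control and T3R1, with gaps of 0.09, 0.08 and 0.10 between neighbours, none of them past the test. T3R1 minus T1R1 came to -0.26 ± 0.13 (SE), a fold of 0.833 with a 95% interval of 0.686 to 1.01. This was the lowest unadjusted limma p of any member test, 0.0613, and its adjusted p was 0.406, with 3 of 4 T3R1 samples below the T1R1 mean.

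The T3R1 value of miR-125a-5p depended on which of the 2 arrays was used. Without the array of T3R1 replicates 1 and 2, the difference from T1R1 was -0.54 at a limma adjusted p of 0.015, in a fit that called 30 probes or 2.94% of those tested. Without the array of T3R1 replicates 3 and 4, it was 0.01 at an adjusted p of 0.969. Leaving out an array leaves T3R1 with a pair of samples that share 1 array, whose spread is taken from the other groups.

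miR-125b-5p had a spread within groups that ran from an SD of 0.02 in T1R1 to 0.43 in T3R1, and no comparison with control passed the test. Its log2 levels were 10.23, 10.55, 10.04 and 9.94 in control and 10.30, 10.27, 10.30 and 10.27 in T1R1. They were 10.08, 10.11, 9.89 and 9.72 in T2R1 and 10.45, 10.46, 9.81 and 9.64 in T3R1. All 4 T2R1 samples lay below all 4 T1R1 samples, while every other pair of groups overlapped. Means ± SD were 10.19 ± 0.27 in control, 10.29 ± 0.02 in T1R1, 9.95 ± 0.18 in T2R1 and 10.09 ± 0.43 in T3R1. In order of level the groups stood as T1R1, control, T3R1 and T2R1, with gaps of 0.10, 0.10 and 0.14 that did not pass the test.

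The comparison of T2R1 with T1R1 lies within slide series 2, and miR-125b-5p is the member that stands apart there. T2R1 was lower by -0.34 ± 0.18 (SE), a fold of 0.792 with a 95% interval of 0.604 to 1.04, at a limma unadjusted p of 0.086 and an adjusted p of 0.998. Of all mouse probes, 0.981% had T2R1 wholly below T1R1, and 2.16% had the groups apart in either direction. Fitted on the 8 samples of slide series 2 alone, the difference was -0.34 ± 0.08 at an adjusted p of 0.75. The sign was the same in each of 16 other ways of processing the values, from -0.47 to -0.34. Several of these ways change only how arrays or dyes enter the fit, or which probes are tested. They returned the same -0.34 and could not turn the sign.

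miR-99a, which shares its chromosome 16 cluster with miR-125b, had its highest value in control and its lowest in T1R1. Its log2 levels were 8.37, 8.57, 8.01 and 8.03 in control and 7.71, 7.79, 8.36 and 8.53 in T1R1. They were 8.11, 8.12, 8.13 and 8.14 in T2R1 and 8.14, 8.25, 7.87 and 7.89 in T3R1. All pairs of groups overlap, and in T1R1 replicates 1 and 2 are the lowest of all 16 samples. Means ± SD were 8.24 ± 0.27 in control, 8.10 ± 0.41 in T1R1, 8.13 ± 0.01 in T2R1 and 8.04 ± 0.19 in T3R1. The groups stood in the order control, T2R1, T1R1 and T3R1, with gaps of 0.12, 0.03 and 0.06 that did not pass the test.

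The top place of control in that order rested on a single spot. On the array of control replicates 1 and 2, the second of the 4 spots of the miR-99a probe read 9.61 in replicate 1 and 9.51 in replicate 2. The other spots there lay at 7.88 to 8.02 in replicate 1 and at 7.91 to 8.10 in replicate 2, where the spot at 7.91 had been marked as an outlier and was left out. In control replicates 3 and 4 the 4 spots lay at 7.83 to 8.16. The bright spot carried no outlier mark in either channel. The SD between the spots of the probe reached 0.825 there, against a median of 0.158 over the 16 samples.

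Taking the median of the spots instead of their mean, a choice made after these values were seen, brought the control mean of miR-99a to 8.05 ± 0.05. The same summary gave 8.15 ± 0.37 in T1R1, 8.14 ± 0.01 in T2R1 and 8.03 ± 0.19 in T3R1. Differences from control moved from -0.15 to 0.10 in T1R1, from -0.12 to 0.09 in T2R1 and from -0.21 to -0.02 in T3R1. None was past the threshold in either form, with limma adjusted p values of 0.836, 0.914 and 0.895 for the means of spots and of 0.852, 0.921 and 0.996 for the medians.

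**Figure D2:**
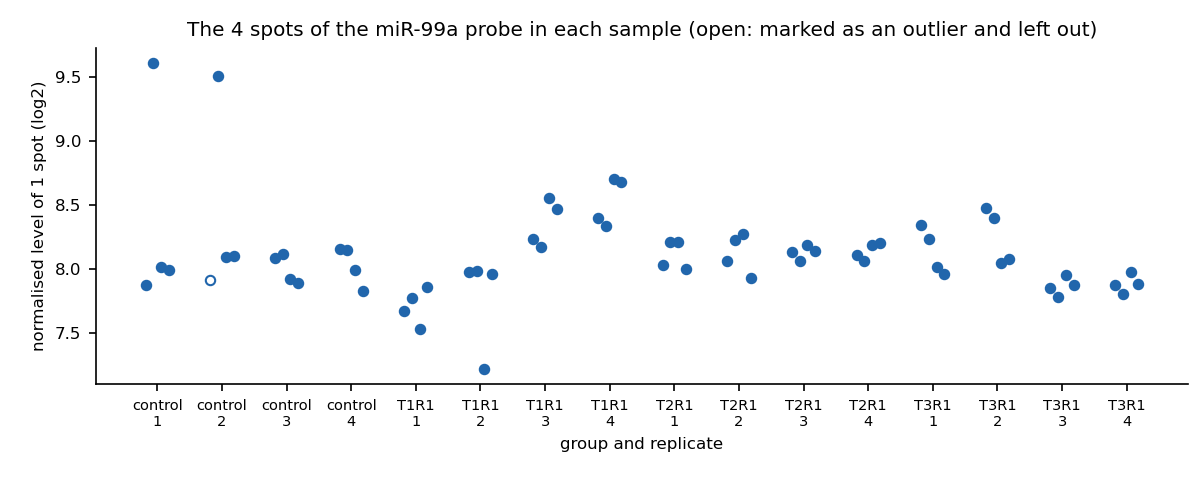
Normalised log2 level of each of the 4 spots of the miR-99a probe in the 16 samples, grouped on the horizontal axis by group and replicate, with an open circle for a spot left out as an outlier. One spot position on the array of control replicates 1 and 2 read 9.61 and 9.51, above all other spots of the probe.

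miR-99b, from the compact chromosome 17 cluster, was the detected member nearest to background and had the narrowest spread of the 4. Its log2 levels were 7.23, 7.34, 7.15 and 7.22 in control and 7.19, 7.33, 7.41 and 7.53 in T1R1. They were 7.37, 7.42, 7.25 and 7.36 in T2R1 and 7.32, 7.42, 7.08 and 7.19 in T3R1. The groups overlap, and the lowest value, in T3R1 replicate 3, was 0.13 above the virus-probe level of its sample. Means ± SD were 7.24 ± 0.08 in control, 7.36 ± 0.14 in T1R1, 7.35 ± 0.07 in T2R1 and 7.25 ± 0.15 in T3R1. The groups stood in the order T1R1, T2R1, T3R1 and control, with gaps of 0.01, 0.10 and 0.02 that did not pass the test. The differences from control were 0.13 ± 0.07 (SE) in T1R1 and 0.11 ± 0.07 in T2R1, with 95% fold intervals of 0.984 to 1.21 and 0.974 to 1.20, at limma adjusted p values of 0.682 and 0.798.

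miR-100, which differs from miR-99a by the base change U16A alone, was not above background in 15 of 16 samples. Its log2 levels were 6.50, 6.51, 6.38 and 6.50 in control and 6.39, 6.53, 6.54 and 6.64 in T1R1. They were 6.45, 6.44, 6.62 and 6.65 in T2R1 and 6.42, 6.53, 6.29 and 6.50 in T3R1. T1R1 replicate 4 exceeded the virus-probe level of its sample, by 0.02, and the others lay up to 0.66 below theirs. Values at this level carry no order between groups, and no fold is given. Log2 differences of miR-100 given elsewhere are differences between readings near background. The miR-99a probe was 0.86 to 1.91 above the virus-probe level in the same samples.

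The tests between groups called none of the 5 members. In T1R1 against control 9 of 1021 probes or 0.881% were called, and the members' differences ran from -0.15 to 0.16 with a median of 0.10, against a median of 0.01 over all probes, where 8.62% had an unadjusted p under 0.05. In T2R1 against control 11 of 1022 or 1.08% were called, with 8.41% at an unadjusted p under 0.05. The members lay between -0.24 and 0.11. Their median there, 0.07, is the value of miR-100, and over the 4 detected members it was -0.02, against 0.00 over all probes. In T3R1 against control, which lies within slide series 1, limma called 0% of 1022 probes, although 7.14% had an unadjusted p under 0.05. The members there ran from -0.21 to 0.02 with a median of -0.10, against 0.00 over all probes. The 4 detected members had a median difference from control of 0.11 in T1R1 and -0.10 in T3R1. Over probes above background in at least 4 samples the median was 0.05 in T1R1, 0.01 in T2R1 and 0.04 in T3R1. Fitted on the 8 samples of slide series 1 alone, the adjusted p in T3R1 against control was 0.993 for every member. Averaged over the 3 exposed groups, the comparison with control called 7 of 1021 probes or 0.686%, with 8.13% at an unadjusted p under 0.05, and put the 4 detected members between -0.16 and 0.08, with a median of -0.02.

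Between exposed groups the members again stood within error. T2R1 against T1R1 called 0% of 1022 probes, with 3.52% at an unadjusted p under 0.05. T3R1 against T2R1 called 11 of 1023 probes or 1.08%, with 9.58% at an unadjusted p under 0.05, and the members ran from -0.18 to 0.14. T3R1 against T1R1 called 22 of 1022 or 2.15%, with 13.9% at an unadjusted p under 0.05. All 5 members had negative differences, from -0.26 to -0.06, with a median of -0.11 against -0.01 over all probes. Positive differences were found in 42.1% of all probes, and in 43.5% of those above background in at least 4 samples. Over the 4 detected members the median was -0.15, against -0.03 over probes above background in at least 4 samples. With the array of T3R1 replicates 3 and 4 left out, 4 of the 5 turned positive, at 0.01 for miR-125a-5p, 0.17 for miR-125b-5p, 0.10 for miR-99a and 0.01 for miR-99b. The virus-probe level of those 2 samples, 6.95 and 6.89, was the highest of the 16, and 165 and 181 mouse probes exceeded it against 178 to 242 in the other samples. The part of this in the negative differences was not tested.

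**Figure D3:**
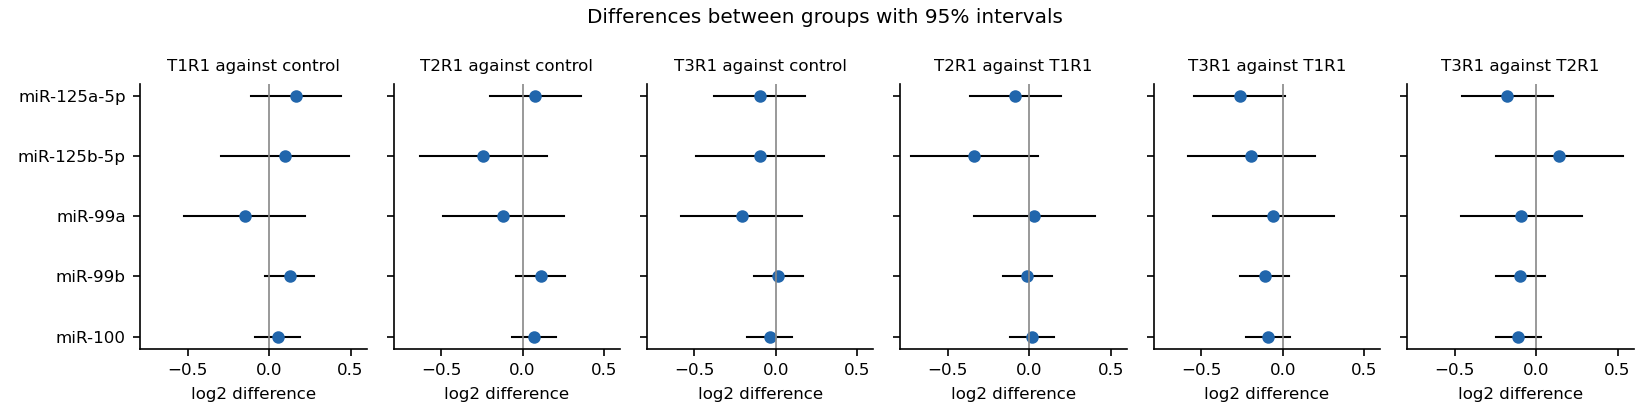
Log2 difference of each member in 6 comparisons of groups, with the limma estimate as a point and its 95% interval as a line. Every interval includes 0; the widest belong to miR-125b-5p and miR-99a, and the lowest unadjusted p, 0.0613, to miR-125a-5p in T3R1 against T1R1.

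The spread within groups was larger between arrays than within them at the median. After allowing for the dye, the 2 samples on an array differed by a median of 0.07 for miR-125a-5p, 0.06 for miR-125b-5p, 0.06 for miR-99a and 0.02 for miR-99b. The median gap between the 2 arrays of a group was 0.19, 0.34, 0.39 and 0.15 for the same members. The highest gaps within an array were 0.16, 0.34, 0.12 and 0.05, and the highest between arrays were 0.55, 0.73, 0.70 and 0.23. Between-array gaps were small in some groups, at 0.00 for miR-125b-5p in T1R1 and 0.02 for miR-99a in T2R1. The correlation of samples on the same array was 0.897 for miR-125a-5p, 0.882 for miR-125b-5p, 0.972 for miR-99a and 0.970 for miR-99b. Over the 224 mouse probes above background in at least 4 samples its median was 0.618, and 2 of these probes were higher than miR-99a and 4 higher than miR-99b. The 2 channels of an array read the same spots, as the bright miR-99a spot in both control samples shows.

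The fit used one array correlation for all 1023 probes, 0.247, which is far below those of the members. Averaging the 2 samples of an array first raised the SE of a difference from control from 0.13 to 0.18 for miR-125a-5p. It raised the SE from 0.18 to 0.25 for miR-125b-5p, from 0.17 to 0.25 for miR-99a and from 0.07 to 0.10 for miR-99b. The intervals given above are therefore narrower than those with 8 arrays as the units.

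With all arrays kept, members were called under 2 of the ways of bringing arrays to one scale. When each array was scaled to a common median instead of a common distribution, miR-125a-5p, miR-125b-5p and miR-99b were called higher in T1R1 than in control, by 0.94, 1.33 and 0.54. In T2R1 they were called higher by 0.83, 0.88 and 0.51. The same setting called 21.3% of probes in T1R1 and 19.7% in T2R1, a large share of the array. T3R1 was then called lower than T1R1 for miR-125a-5p and miR-125b-5p, by -0.66 and -0.99, beside 8.32% of probes. The same setting called 3.13% of probes in T3R1 against control and 22.1% for the mean of the exposed groups, with miR-125a-5p, miR-125b-5p and miR-99b among the latter at 0.68, 0.85 and 0.43. With no step between arrays, 59.8% of probes were called in T1R1 against control, 64.5% in T2R1 and 69.2% in T3R1, and the median of all probes shifted by -0.59, -0.62 and -0.62. miR-100 was then called in T3R1, at -0.62, the same size as the shift of the median probe, and for the mean of the exposed groups, at -0.51, where 75.2% of probes were called. miR-99a was not called under any of these settings. Quantile normalisation of single channels, the deposited value table and the median of spots called no member.

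**Figure D4:**
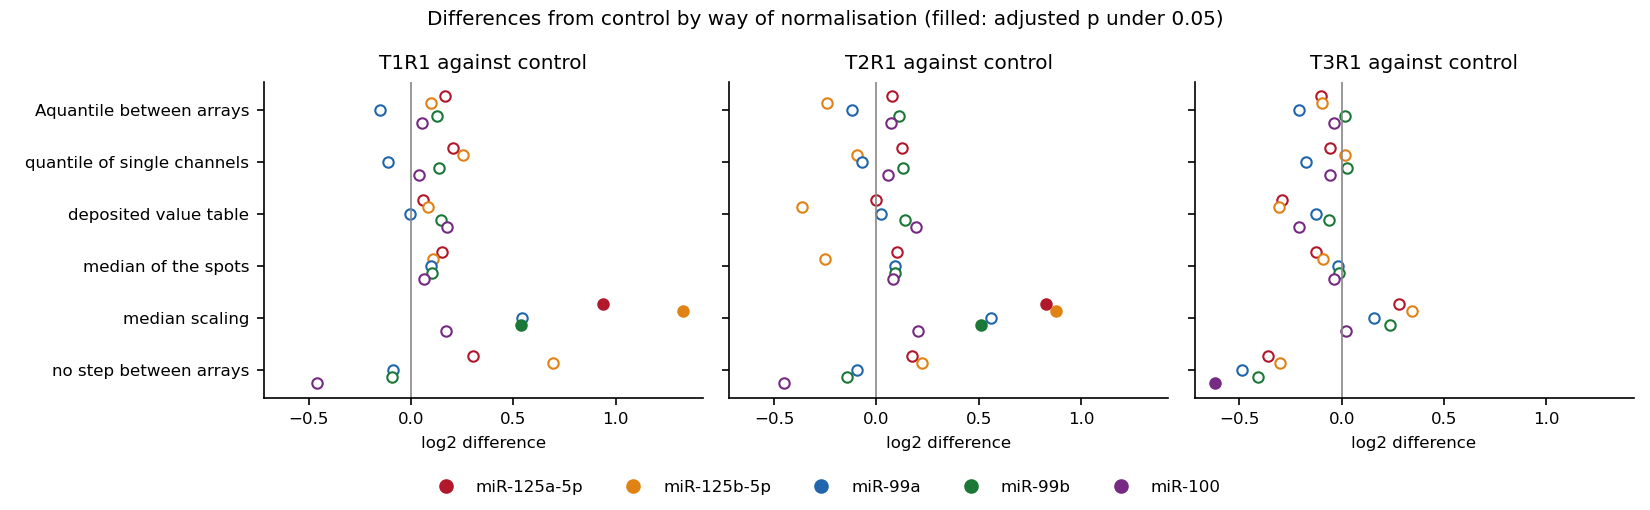
Log2 difference of each member from control in T1R1, T2R1 and T3R1 under 6 ways of processing, with filled points at a limma adjusted p under 0.05. Median scaling moved miR-125b-5p in T1R1 from 0.10 to 1.33, and filled points appear under median scaling and with no step between arrays.

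The opposite strands of the same precursors were near background throughout. A precursor hairpin yields a 5′ and a 3′ strand, of which one usually accumulates. 2 of the hairpins are shown with both mature strands in capitals, the member first.
Mir99a: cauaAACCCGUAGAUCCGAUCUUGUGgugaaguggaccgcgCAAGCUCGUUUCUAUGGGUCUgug
Mir125b-1: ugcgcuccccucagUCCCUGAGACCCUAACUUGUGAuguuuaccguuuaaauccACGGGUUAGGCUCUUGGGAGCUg
The array held 6 opposite strands, miR-125a-3p, miR-125b-1-3p, miR-125b-2-3p, miR-99a*, miR-99b* and miR-100*, where a star marks the less abundant strand in older naming. 5 of them were above background in 0 samples, and miR-99b* in 1. limma called 0 of 6 in each of the 7 comparisons, and 3 of 42 tests or 7.14% had an unadjusted p under 0.05, against 8.47% over all mouse probes. miR-99a* ranged from 6.04 to 6.48 over the 16 samples, where miR-99a ranged from 7.71 to 8.57.

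miR-351, which has the miR-125 seed but lies outside the 3 clusters, had its highest mean in T3R1, where miR-125a-5p had its lowest. Its log2 levels were 7.18, 7.22, 7.07 and 7.09 in control and 6.90, 6.99, 6.96 and 7.14 in T1R1. They were 6.91, 7.14, 6.85 and 7.11 in T2R1 and 7.21, 7.21, 7.28 and 7.27 in T3R1. All 4 T3R1 samples lay above all T1R1 and T2R1 samples, which belong to the other slide series, and control overlapped the 3 exposed groups. T3R1 minus T1R1 was 0.24 ± 0.06 (SE) at a limma adjusted p of 0.0668, and T3R1 minus T2R1 was 0.24 ± 0.06 at an adjusted p of 0.134. Groups were apart in 7.46% and 5.48% of probes in these comparisons. The first passed the threshold in some settings and not in others, with adjusted p values of 0.0223 to 0.998 over 15 other ways of processing. The second passed when the fit made no allowance for the array, at a limma adjusted p of 0.0478. It also passed without the second control array, at 0.0492, and in most settings it did not pass. The correlation of samples on the same array was 0.113 for miR-351.

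Of the let-7 microRNAs of the clusters, let-7a alone was called. Over the 16 samples 6 spots of let-7a and 12 of let-7c were left out as outliers, and each rested on as few as 1 spot in a sample. let-7 microRNAs act in developmental timing and in restraint of growth. let-7a stood at 7.59 ± 0.05 in control, 8.13 ± 0.05 in T1R1, 8.38 ± 0.05 in T2R1 and 7.73 ± 0.15 in T3R1 (mean ± SD of 4 samples on the log2 scale). It rose by 0.54 ± 0.07 (SE) in T1R1 and 0.79 ± 0.07 in T2R1 over control, at limma adjusted p values of 0.000726 and 1.31e-05, with all samples of each above all controls, as 5.91% and 4.42% of probes had these groups apart. T1R1 and T2R1 are the groups of the other slide series, so slide series and exposure cannot be told apart here. The T1R1 call was lost in the deposited value table, at 0.58 and an adjusted p of 0.102, and with no step between arrays, at 0.46 and 0.151. The summed level of the erythroid markers with values throughout, 2 of 3, was 421 to 626 in control, 429 to 1160 in T1R1, 489 to 690 in T2R1 and 352 to 513 in T3R1, and its part was not tested. The 4 leukocyte markers summed to 579 to 732 in control and 600 to 897 in T1R1. Their sum was 593 to 691 in T2R1 and 541 to 620 in T3R1. Of them limma called miR-150 alone, lower in T2R1 than in control at -0.23 and an adjusted p of 0.0105. It was also called lower in the mean of exposed groups, at -0.16 and 0.0459. These comparisons called 1.08% and 0.686% of all probes, and in each 2 of the 4 markers were positive and 2 negative. The markers ran from -0.23 to 0.25 in T2R1 and from -0.19 to 0.17 in the mean of exposed groups. The part of these markers was not tested either. miR-100 and miR-125b-5p, from the chromosome 9 cluster that also holds a let-7a gene, were not called. The let-7a sequence is also made from genes outside these clusters. let-7c, on chromosome 16, stood at 8.97 ± 0.15 in control, 9.09 ± 0.11 in T1R1, 9.10 ± 0.09 in T2R1 and 8.92 ± 0.10 in T3R1. let-7e, on chromosome 17, stood at 8.40 ± 0.07, 8.47 ± 0.12, 8.48 ± 0.11 and 8.44 ± 0.17 in the same order. Neither was called in any of the 7 comparisons. Star strands of let-7a, let-7c and let-7e, on 4 probes, exceeded background in 0 samples. The probe shared by let-7a-1* and let-7c-2* is for genes outside the clusters. Over the let-7 family as a whole 1 of 8 tested probes was called in T1R1 against control and 1 of 9 in T2R1 against control. The called probe was let-7a in both, where 0.881% and 1.08% of all probes were called.

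MicroRNAs of the chromosome 17 cluster varied together across samples, and also with let-7c of the chromosome 16 cluster. Correlations were taken over the 16 samples on log2 levels with the dye mean removed, and are descriptive, since the samples share 8 arrays and 1 normalisation. miR-125a-5p and miR-99b had a Pearson r of 0.88, miR-99b and let-7e 0.83, and miR-125a-5p and let-7e 0.81. From another cluster, let-7c had r = 0.81 with miR-125a-5p, 0.80 with miR-99b and 0.71 with let-7e. Over the 8 array means r was 0.91 for miR-125a-5p with miR-99b and 0.91 for miR-99b with let-7e. On chromosome 9, miR-125b-5p had r = -0.00 with miR-100 and -0.30 with let-7a, although miR-100 was near background. On chromosome 16, miR-99a had r = 0.46 with miR-125b-5p and 0.58 with let-7c, on levels that include its bright spot in control. The median over the 9 pairs within a cluster was 0.48, and over the 19 pairs from different clusters it was 0.53. miR-125a-5p and miR-125b-5p, which share a seed and no cluster, had r = 0.76.

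Likeness to probes other than the members was ranked next, so pairs of members such as miR-125a-5p with miR-99b, at 0.88, are not in these ranks. Among 213 such probes above background in at least 4 samples, let-7b was most like miR-125b-5p, with r = 0.94 over 16 samples and 0.94 over the 8 array means. Next to it were miR-3084 at 0.88 and miR-23a at 0.86. Outside the members, miR-125a-5p was most like miR-320, let-7b and the probe for miR-378 and miR-378b, at 0.88, 0.88 and 0.87. Without the 2 samples farthest from the median, these were 0.70, 0.67 and 0.67, while miR-99b with miR-125a-5p stood at 0.88 and let-7b with miR-125b-5p at 0.92. Outside the members, miR-99b was most like miR-195, let-7e and miR-199a-5p, at 0.87, 0.83 and 0.83. miR-99a was most like miR-199b* at 0.77, the muscle microRNA miR-133a at 0.73 and miR-365 at 0.72. These values for miR-99a rest on means of spots, which include the bright spot of control replicates 1 and 2. The readings of miR-100, which lay near background, were most like miR-1839-3p at 0.85, miR-345-5p at 0.77 and let-7f at 0.73. Whether these values reflect the microRNA or background signal was not tested.

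**Figure D5:**
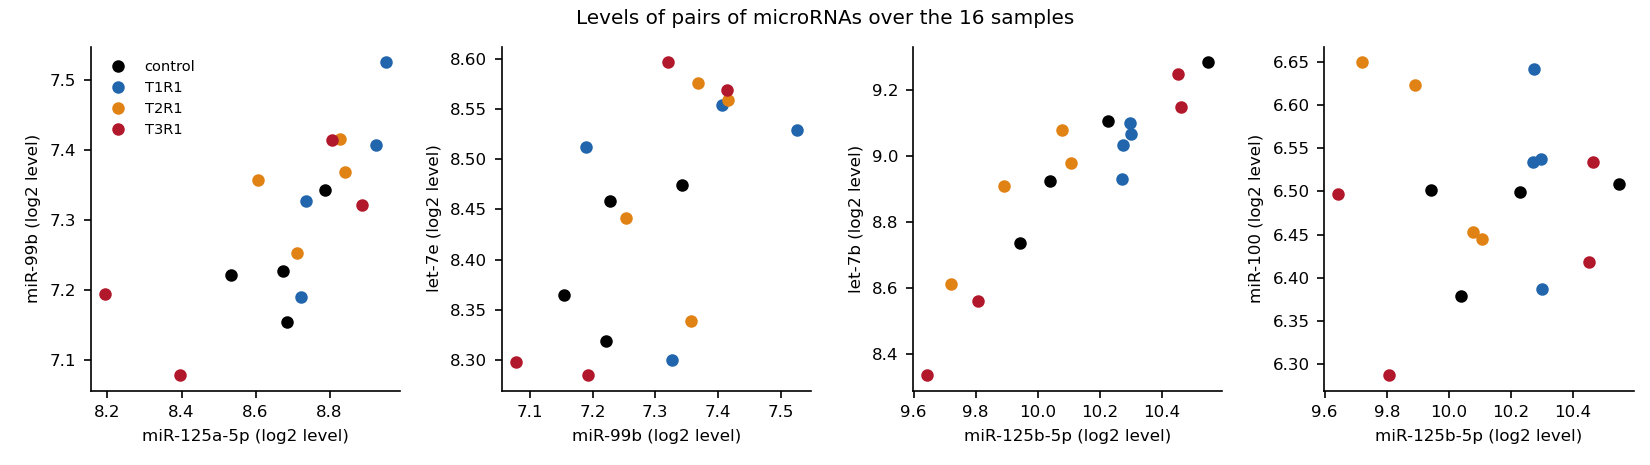
Log2 levels of 4 pairs of microRNAs, 1 point per sample, coloured by group. miR-125b-5p and let-7b (r = 0.94) and miR-125a-5p and miR-99b (r = 0.88) rise together, with T3R1 samples near both ends, while miR-125b-5p and miR-100 (r = -0.00) do not.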

How the data were processed

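The starting values are scanner readings that the authors deposited for every array. Each reading is the intensity of a spot in a channel, written by Agilent Feature Extraction, version 9.5.3.1 per the file headers, with the local background and 0 or 1 marks for outlier and saturated spots. The authors also deposited a log2 table of these samples whose making no source used here describes. All its columns have the median 3.76. Over 2667 probes a column correlated at 0.967 to 0.995 with the log2 signals of the channel it is labelled as, and at 0.860 to 0.955 with the partner channel of that array, so columns were taken as labelled, and the centring stays unknown. Alternatives were another background correction, scaling, array correlation, spot rule and probe filter, the deposited table and leaving out each sample. Leaving out each array and the median of spots were chosen after seeing the data.

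Mean intensities were analysed in R 4.3.3 with limma 3.58.1, and files were read by data.table (version 1.17.8). The normexp background correction had an offset of 50, dyes were normalised by loess within arrays with 1712 control spots at weight 0, control spots were removed, and arrays were set to a common distribution by Aquantile. Spots marked as outliers were left out, 0.611% to 2.83% per sample, saturated spots were kept, and the 4 spots of a probe were averaged. Of the members' 64 spots over the 16 samples this left out 5 for miR-125a-5p, 8 for miR-125b-5p and 1 for miR-99a; none was saturated. Values were missing for 7 probes, none of them a member, and let-7g had none in T1R1.

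limma's lmFit and eBayes fitted group means and a dye term with the array as a random block (consensus correlation 0.247), with 11 residual and 3.04 prior degrees of freedom. P values were adjusted by Benjamini-Hochberg over the mouse probes tested, with 0.05 as the limit for a call. The number of arrays, 2 per group, limits the precision. The members and lists were chosen with earlier results of these data known. Named beside them, by rule, are the opposite strands, seed relatives on the array, cluster let-7 microRNAs and the 3 probes most correlated with each member. Sequences and positions come from RefSeq (GRCm38.p6); all 5 members matched. Figures were drawn with matplotlib.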

Additional observations from a re-analysis of the deposited data

Results flagged for a closer look

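miR-100 in control had 1 sample apart from the others. Replicate 3 stood at 6.38 against 6.50, 6.50 and 6.51, a gap of 0.932 of the range of the group, and all 4 values lie below the virus-probe level. let-7e in T1R1 had replicate 2 at 8.30 against 8.51, 8.53 and 8.55, a gap of 0.834 of the range. Chance alone takes about 1 of 20 groups of 4 past the limit used, and the groups of the members, cluster let-7 microRNAs and miR-351 were all looked at. let-7a differed between exposed groups, with T3R1 below T1R1 by -0.40 and below T2R1 by -0.65 on the log2 scale, at limma adjusted p values of 0.00483 and 7.49e-05. Both differences lie across the slide series.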

How the results depend on the processing

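The 5 members were refitted in 7 comparisons under other ways of processing, which gave 528 values. Of these 485 kept their direction and stayed uncalled, 10 kept their direction and were called, and 33 changed sign, 3 of them with a call. Ways that change only how arrays or dyes enter the fit, or which probes are tested, leave the estimate as it was. Part of the 485 could therefore not change sign. Leaving out 1 sample changed 15 of 560 signs and called none, and leaving out 1 array changed 37 of 280 signs and called 1, miR-125a-5p in T3R1 against T1R1 at -0.54. Leaving out a sample or array of a group outside a comparison does not move its estimate. For miR-351, T3R1 minus T1R1 stayed at 0.24 without either control array. Many of the 560 and 280 values could therefore not change sign, and these shares understate how far directions depend on samples and arrays. miR-100 has no value when probes not above background in 4 samples are left out. The cause of the changes was not tested. In each list below the comparisons are T1R1, T2R1 and T3R1 against control, their mean against control, and T2R1 or T3R1 against the earlier groups.

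Under median scaling, signs turned for miR-99a (0.54 in T1R1, 0.56 in T2R1, 0.16 in T3R1, 0.42 in the mean) and miR-125b-5p (0.88 in T2R1, 0.34 in T3R1, 0.85 in the mean, -0.53 in T3R1 against T2R1). So did miR-125a-5p at 0.28 and miR-100 at 0.023 in T3R1, and miR-351 at 0.17 in T1R1, 0.18 in T2R1 and 0.22 in the mean, the last of them called at an adjusted p of 0.0421. With no step between arrays, signs turned for miR-99b (-0.094, -0.14, -0.41 and -0.22 in T1R1, T2R1, T3R1 and the mean) and miR-100 (-0.46, -0.45 and -0.51 in T1R1, T2R1 and the mean). So did miR-125b-5p at 0.22 in T2R1, 0.21 in the mean and -0.52 in T3R1 against T2R1, let-7a at -0.27 and miR-351 at -0.34 in T3R1, and miR-99a at -0.0061 and miR-351 at -0.0076 in T2R1 against T1R1. The deposited values turned miR-125a-5p to -0.0012 in T2R1 and -0.078 in the mean, miR-99a to 0.023 in T2R1 and miR-99b to -0.063 in T3R1. Quantile normalisation turned miR-125b-5p to 0.017 in T3R1 and 0.059 in the mean, and miR-351 to -0.00089 in T2R1 against T1R1. Processed signals turned miR-100 to -0.018 in T2R1 against T1R1. The median of spots turned miR-99a to 0.099, 0.092 and 0.058 in T1R1, T2R1 and the mean and to -0.0072 in T2R1 against T1R1, and miR-99b to -0.012 in T3R1. let-7a in T3R1 against T1R1 lost its call under 6 settings, at adjusted p values of 0.0882 to 0.965, and without the second T1R1 array, at -0.41 and 0.0531. With no step it also lost its calls in T1R1 against control (0.46, adjusted p 0.151), the mean (0.30, 0.238) and T3R1 against T2R1 (-0.96, 0.472), and in the deposited values that in T1R1 (0.58, 0.102).

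Leaving out 1 sample or 1 array turned some signs, and the lowest and highest values for those follow. In T1R1 against control the values were miR-125b-5p -0.10 to 0.30, miR-99a -0.50 to 0.20 and miR-100 -0.012 to 0.12. In T2R1 against control the values were miR-125a-5p -0.0102 to 0.16, miR-99a -0.34 to 0.11 and miR-100 -0.023 to 0.16. In T3R1 against control the values were miR-125a-5p -0.38 to 0.18, miR-125b-5p -0.46 to 0.27, miR-99a -0.44 to 0.018, miR-99b -0.10 to 0.13 and miR-100 -0.0798 to 0.0036. In the mean of exposed groups the values were miR-125a-5p -0.045 to 0.14, miR-125b-5p -0.28 to 0.12, miR-99a -0.39 to 0.068, miR-100 -0.0036 to 0.0603 and miR-351 -0.12 to 0.00079. In T2R1 against T1R1 the values were miR-125a-5p -0.19 to 0.017, miR-99a -0.32 to 0.38, miR-99b -0.12 to 0.0904, miR-100 -0.076 to 0.11 and miR-351 -0.043 to 0.056. In T3R1 against T1R1 the values were miR-125a-5p -0.54 to 0.012, miR-125b-5p -0.56 to 0.17, miR-99a -0.41 to 0.29 and miR-99b -0.23 to 0.0057. In T3R1 against T2R1 the values were miR-125a-5p -0.45 to 0.0995, miR-125b-5p -0.22 to 0.51, miR-99a -0.25 to 0.069 and miR-99b -0.21 to 0.019.

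Counts of called probes are given in the order T1R1, T2R1 and mean against control, T3R1 against T1R1 and T3R1 against T2R1, where they moved by over 1.5 times. They were 2, 2, 2, 4 and 5 with a normexp offset of 0, 611, 659, 768, 0 and 1 with no step, and 217, 201, 226, 85 and 42 under median scaling. They were 2, 3, 2, 3 and 4 with the array correlation of detected probes, 2, 3, 1, 2 and 4 with samples of an array averaged, and 4, 6, 4, 14 and 3 over detected probes alone. T3R1 against control moved from 0 to 707 with no step and to 32 under median scaling. Quantile normalisation gave 3 for T1R1, 4 for the mean and 8 and 7 for the last pair, the deposited values 1 for T1R1, 7 for T2R1 and 3 and 4 for the last pair, and processed signals 12 for the mean and 2 and 3 for the last pair. Without an array block T1R1 gave 16 and T3R1 against T1R1 36, and without a dye term T3R1 against T2R1 gave 7. Leaving out 1 sample or array gave 3 to 36 in T1R1, 4 to 35 in T2R1, 0 to 22 in T3R1, 5 to 38 in the mean, 0 to 1 in T2R1 against T1R1, 5 to 43 in T3R1 against T1R1 and 4 to 21 in T3R1 against T2R1.

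Replicate numbers did not pair samples. Correlations of deviations in 24 same-numbered pairs ran from -0.33 to 0.31, and 6 exceeded 0.1. With the replicate number as a block the counts were 10, 16 and 0 in T1R1, T2R1 and T3R1 against control, 8 in the mean, 0 in T2R1 against T1R1, and 19 and 10 in T3R1 against T1R1 and T2R1. Signal over background limits miR-100 most and miR-99b next.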
